A study of Mus musculus with 4 samples.

Results

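Small nucleolar RNAs are short stable RNAs, most of them cut out of introns, that guide chemical changes of other RNAs. The genes described here are those whose symbol starts with Snord (box C/D), Snora (box H/ACA) or Scarna (small Cajal body RNAs). A gene was included where the platform annotation gave its row of the deposited table exactly 1 distinct symbol, and a symbol with several rows was represented by the one whose signal, averaged over the 4 arrays, was highest. This gave 68 genes of the 30142 with a single symbol, of which 44 were box C/D, 18 box H/ACA and 6 small Cajal body RNAs (scaRNAs). The choice used gene names and mean levels only and took no account of genotype.

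Box C/D RNAs direct 2′-O-methylation through the methyltransferase fibrillarin, and box H/ACA RNAs direct the conversion of uridine to pseudouridine through dyskerin. Most of their targets lie in ribosomal RNA, while scaRNAs guide modification of the spliceosomal snRNAs in the Cajal body. A few members, such as U8, U14 and U17, serve the cleavage of the ribosomal RNA precursor. Tip110, the product of the gene Sart3, is a U4 and U6 snRNA recycling factor that has been placed in the Cajal body.

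The samples were outgrowths, which form when a mouse blastocyst attaches in culture and trophoblast cells spread out beneath the growing inner cell mass. Blastocysts were flushed at 3.5 days post coitum from crosses in which both parents carried 1 mutant Tip110 copy, and each was cultured for 4 to 6 days in the medium used for embryonic stem cells, with knockout serum replacement. There were 2 wild-type arrays and 2 Tip110-/- arrays. In each genotype replicate 1 pooled 3 outgrowths and replicate 2 was a single outgrowth. The labels give no strain and do not describe the Tip110 mutation further, and no other treatment was given. They call the samples biological replicates without saying which litters they came from. Wild-type outgrowths yielded 746 and 178 pg of RNA, Tip110-/- outgrowths 165 and 144 pg. It was purified on spin columns of a kit made for longer RNA, which recovers RNA as short as most snoRNAs poorly. How much of each signal came from mature snoRNA and how much from the unspliced RNA of the surrounding gene was not tested.

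Values are log2 signals as deposited, and the table has no detection calls. In the order wild-type pool, wild-type single, Tip110-/- pool and Tip110-/- single, which is used throughout, the median of the 23 antigenomic rows (probes that match no mouse sequence) was 2.83, 2.82, 3.05 and 2.94. The median over all genes was 4.21, 4.22, 4.45 and 4.32. The 4 hybridization controls were higher in both Tip110-/- arrays, by 0.34 to 0.79. Sart3 was at 4.94, 5.98, 4.28 and 4.54, a difference of -1.05 ± 0.39 (SE, limma adjusted p = 0.386). Epiblast markers were lower in Tip110-/- at an unadjusted p under 0.05 in limma in 9 of 10 genes, against 3.67% of all genes. After adjustment 0 of the 10 passed. The list medians were 9.52, 9.63, 6.95 and 5.18. The medians of 10 trophoblast markers were 10.66, 10.66, 10.50 and 12.06. Of these, 1 was higher at the unadjusted mark and 0 lower, against 8.99% and 3.67% of all genes. The medians of 6 primitive endoderm markers were 4.67, 3.91, 4.25 and 4.70, with 0 higher or lower at that mark. Gata6, Sox17, Sox7, Dab2 and Foxa2 did not exceed the highest antigenomic row on both arrays of a genotype, which limits what this list can show. Fewer cells of a type and less RNA per cell cannot be told apart in such samples, and the part of cell makeup in the snoRNA values was not tested.

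Signal of the snoRNA genes lay above that of the table at large. Measured from each array's antigenomic median, the box C/D median stood at 2.74, 2.31, 3.70 and 5.54 and the box H/ACA median at 4.03, 4.33, 5.47 and 6.02, against 1.39, 1.40, 1.40 and 1.38 for all genes. In both box classes each Tip110-/- array was therefore farther from background than either wild-type array. The scaRNA median was at 2.18, 1.42, 3.91 and 2.00, where the wild-type pool and the single Tip110-/- outgrowth overlapped. A gene was called above background where it exceeded the highest antigenomic row of the same array on both arrays of a genotype. That held for 29 of 44 box C/D, 14 of 18 box H/ACA and 3 of 6 scaRNA genes, against 38.4% of all genes. On all 4 arrays it held for 9, 9 and 2 genes, while 10 of the 68 reached it on no array.

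This limit was not equal between the arrays. It stood at 6.12 and 5.80 in wild-type and at 4.78 and 4.81 in Tip110-/-, set in 3 of the 4 arrays by the antigenomic row of lowest GC content. With the single limit of 6.12 on every array, 33 and 27 snoRNA genes passed in wild-type and 44 and 45 in Tip110-/-. Over all genes the same limit passed 27.7%, 27.3%, 26.3% and 26.5%. At 1 unit above each array's antigenomic median the counts were nearly level, at 54 and 52 against 57 and 56 of 68.

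**Figure D1:**
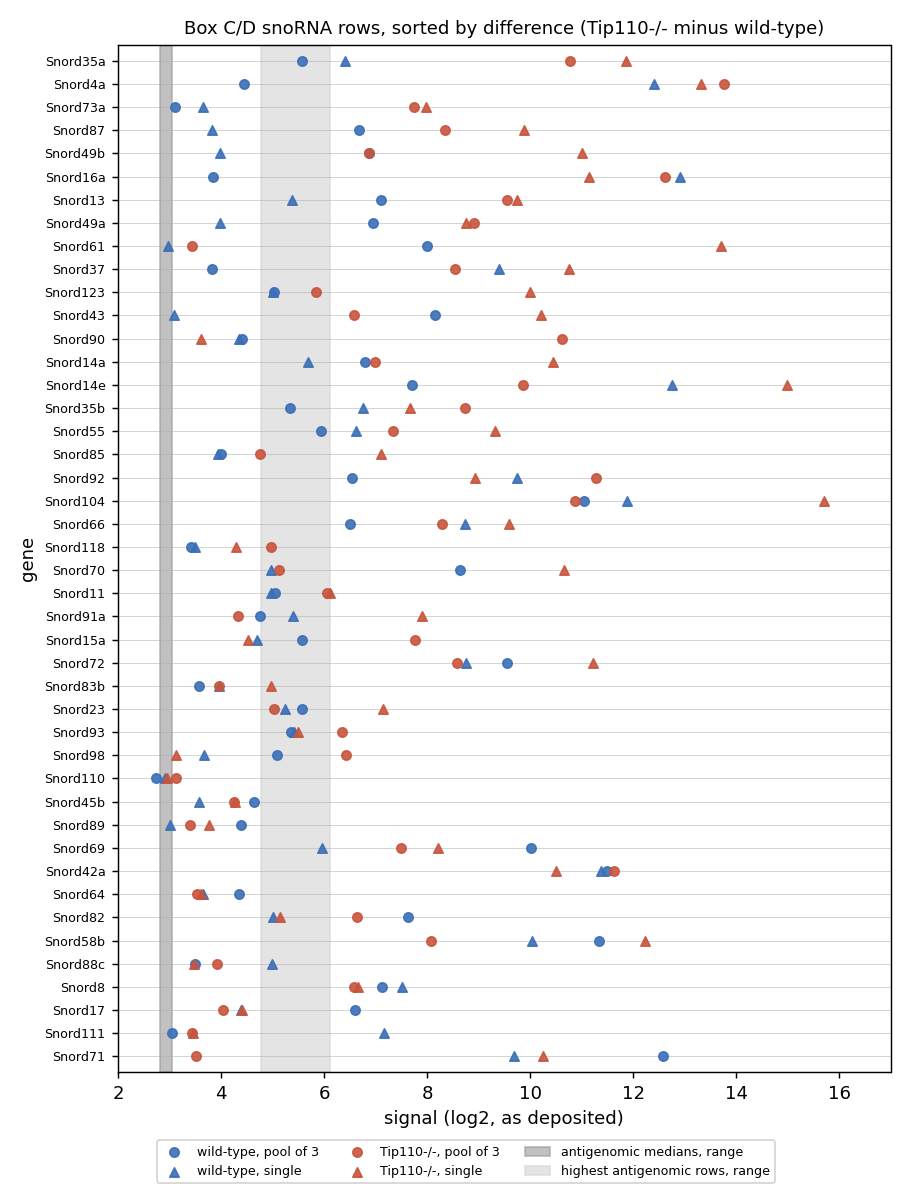
Signal (log2, as deposited) of the 44 box C/D genes on each array, sorted by the difference between genotypes; circles are pools of 3 outgrowths, triangles single outgrowths, blue wild-type and red Tip110-/-. The dark band spans the antigenomic medians of the 4 arrays and the light band their highest antigenomic rows; Snord35a lies at the top with both Tip110-/- points above 10, and in 27 genes the colours overlap.

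Box C/D genes as a class had higher signal in the Tip110-/- arrays, and no single gene passed the adjusted threshold. The array medians were 5.57, 5.13, 6.75 and 8.48. The median difference (Tip110-/- mean minus wild-type mean) was 1.12, against 0.15 over all genes. It was 0.71 without Tip110-/- replicate 2 and 1.68 without Tip110-/- replicate 1. The difference was positive in 33 of 44 genes, or 75%, where 69.6% of all genes were positive. At an unadjusted p under 0.05 in limma 10 genes were higher and 0 lower. After Benjamini-Hochberg adjustment over all genes 0 passed, and the smallest adjusted p was 0.154. Of the 18 genes of all classes at the unadjusted mark, 4 were not above background. Another 5 exceeded the highest antigenomic row on both Tip110-/- arrays and on neither wild-type array, where that limit stood higher. Over all genes 8.99% were higher and 3.67% lower at the unadjusted mark, and 0% passed the adjusted threshold. The share of higher genes in the table depended on the scaling, at 4.19% after quantile scaling, 3.02% after centring on the gene median, 3.89% after loess and 2.97% after centring on the antigenomic median, with 9, 8, 9 and 8 box C/D genes higher. On the values as deposited the share of higher genes was 22.7% in the class. The median difference was 1.11 without wild-type replicate 1 and 0.96 without wild-type replicate 2.

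The differences were large in size and often overlapped between the arrays. At least a 2-fold higher mean signal was seen in 26 box C/D genes, or 59.1%, against 4.53% of all genes. At least a 2-fold lower mean was seen in 3, or 6.82%, against 5.56%. Both Tip110-/- arrays lay above both wild-type arrays in 15 genes, or 34.1%, against 39.9% of all genes. Among the 6803 genes whose mean signal lay between the quartiles of the means of the 68 genes, that share was 20.7%, with 27.1% below, 47.9% positive, 4.44% higher at the unadjusted mark and 10.1% at least 2-fold higher. The class share thus lay below that of the whole table and above that of genes of like mean signal, and neither difference was tested. Both lay below in 2 genes, Snord8 and Snord64, or 4.55% against 12.9%. In 11 of 44 genes, or 25%, the difference between genotypes exceeded the gap between arrays in both genotypes, against 36.4% of all genes.

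**Figure D2:**
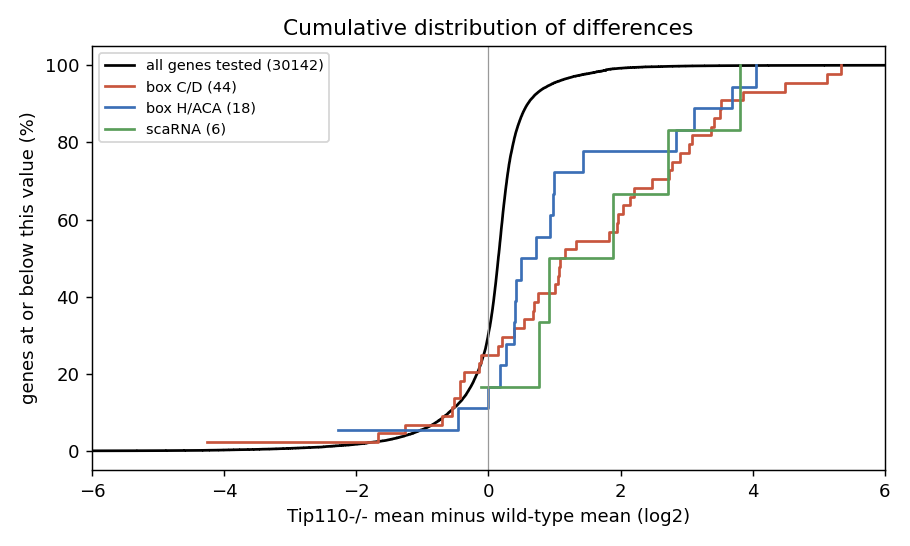
Cumulative distribution of the difference between genotypes (Tip110-/- mean minus wild-type mean, log2, x axis) as the percentage of genes at or below each value (y axis), for all 30142 genes tested and for the 3 classes. The black line rises steeply around its median of 0.15, while the box C/D, box H/ACA and scaRNA steps cross 50% near their medians of 1.12, 0.61 and 1.40.

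Snord35a, a methylation guide from an intron of the ribosomal protein gene Rpl13a, had the largest difference of all 68 genes. The wild-type arrays read 5.56 and 6.40, the Tip110-/- arrays 10.77 and 11.87. Both Tip110-/- arrays lay more than 4 units above the higher wild-type array. The means were 5.98 ± 0.59 (SD, n = 2) and 11.32 ± 0.77 (SD, n = 2), and the difference was 5.34 ± 0.65 (SE, limma adjusted p = 0.287). Its relative Snord35b was at 5.34, 6.76, 8.73 and 7.66. The groups did not overlap there either, with a smaller difference of 2.15 ± 0.68 (limma adjusted p = 0.358). It no longer had an unadjusted p under 0.05 without wild-type replicate 1, at 1.44, or without Tip110-/- replicate 1, at 1.62.

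Snord73a lies within Rps3a1, another ribosomal protein gene, and had the smallest p among the snoRNA genes. The wild-type arrays read 3.10 and 3.65, as little as 0.27 above the antigenomic median of the array, and the Tip110-/- arrays 7.74 and 7.97. Wild-type was near background and both Tip110-/- arrays were clear of it, so background limits the size of the difference, 4.48 ± 0.32 (SE, limma adjusted p = 0.154). The row of Rps3a1 itself was at 16.96, 16.90, 16.84 and 17.07, a difference of 0.02.

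Snord13 is unusual among box C/D RNAs, since it guides acetylation of the small subunit ribosomal RNA and is transcribed from a gene of its own. The wild-type arrays read 7.11 and 5.37, the Tip110-/- arrays 9.55 and 9.75. The Tip110-/- arrays agreed closely and both lay above the wild-type arrays, which were further apart. The difference was 3.41 ± 0.71 (SE, limma adjusted p = 0.327), and a second row with the same symbol differed by 3.26. Snord118, the U8 RNA needed to process the large subunit RNAs, also stands outside any other gene in the annotation. Its kept row was at 3.42, 3.50, 4.97 and 4.28, a difference of 1.16 ± 0.25 (limma adjusted p = 0.332), and was above the highest antigenomic row on 1 array. Its second row stayed at 2.81, 2.76, 2.82 and 2.75, so the rows of this gene did not show the same difference.

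Snord49a, from the noncoding gene 2410006H16Rik, was at 6.94, 3.97, 8.91 and 8.76. The groups did not overlap, and the wild-type arrays were almost 3 units apart. The difference was 3.37 ± 1.01 (SE, limma adjusted p = 0.348). Snord87, which lies where the noncoding Snhg6 and the gene Mcmdc2 overlap, also had no overlap, at 6.68, 3.82, 8.34 and 9.88, with a difference of 3.86 ± 1.09 (limma adjusted p = 0.343). Snord49a lost its unadjusted call without Tip110-/- replicate 1 or 2, at 3.30 and 3.45, and Snord87 without replicate 2 of wild-type or of Tip110-/-, at 2.43 and 3.09. Snord11, from an intron of the gene for the box C/D core protein Nop58, had close replicates in both genotypes, at 5.05, 4.97, 6.06 and 6.11. Its difference was 1.07 ± 0.25 (limma adjusted p = 0.334). Both wild-type values were below the highest antigenomic row of their array, and the Tip110-/- values were below the common limit of 6.12, so background limits this difference too.

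The U14 RNAs, which base-pair with the precursor of the small subunit RNA, were measured by 2 rows with a single symbol. Snord14a, within Rps13, was at 6.80, 5.69, 6.99 and 10.44. Only the single Tip110-/- outgrowth stood far above the rest, and the difference of 2.47 ± 1.21 (SE) did not pass (limma adjusted p = 0.421). Snord14e, within Hspa8, was at 7.70, 12.75, 9.87 and 15.00, so that both single outgrowths were high and both pools low. Its difference between genotypes, 2.21 ± 2.32 (limma adjusted p = 0.628), was smaller than the gap of 5.05 within wild-type. Another row, which names Hspa8 together with Snord14c, Snord14d and Snord14e, was at 13.62, 14.42, 13.76 and 13.92, a difference of -0.18. Near-identical U14 copies can share probes.

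Snord55 was at 5.95, 6.62, 7.33 and 9.31, without overlap, a difference of 2.04 ± 0.77 (SE, limma adjusted p = 0.388). Snord85 was at 3.99, 3.95, 4.76 and 7.10, above the highest antigenomic row on the single Tip110-/- outgrowth alone. Snord123, within the noncoding Snhg18, was at 5.03, 5.01, 5.85 and then far higher in that same outgrowth, and its unadjusted p was above 0.05. Snord90, within Rc3h2, was at 4.40, 4.35, 10.62 and 3.60, where the Tip110-/- pool alone was high. Snord37, within the elongation factor gene Eef2, was at 3.82, 9.39, 8.54 and 10.75, where the wild-type pool alone was low. Snord43, within Rpl3, was at 8.15, 3.09, 6.57 and 10.22, a difference of 2.78 with overlap. The members not named elsewhere lay between Snord92 at 1.95 and Snord111 at -1.67, and among them Snord93 and Snord110 were higher in both Tip110-/- arrays, by 0.54 and 0.21, with Snord110 above the highest antigenomic row on none.

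Signals of different genes come from different probes and cannot be set against each other, so only differences within a gene are compared. Snord4a, within Rpl23a, was at 4.44, 12.40, 13.77 and 13.33. Its difference of 5.12 ± 2.56 (SE, limma adjusted p = 0.425) rested on the wild-type pool, without which it was 1.14. Without the single wild-type outgrowth it was 9.10, with an unadjusted p of 0.00015. Snord104 was at 11.04, 11.89, 10.86 and 15.72, with the single Tip110-/- outgrowth high. Snord42a was at 11.49, 11.38, 11.63 and 10.51 and Snord58b at 11.33, 10.03, 8.07 and 12.24, with differences of -0.37 and -0.53. Snord8, above background on all 4 arrays, was lower in both Tip110-/- arrays, at 7.13, 7.51, 6.57 and 6.66, a difference of -0.70 ± 0.39 (limma adjusted p = 0.442). Snord71, chosen for mention after its values were seen, had the largest negative difference, -4.26 ± 2.36, from signals of 12.59, 9.70, 3.51 and 10.25. The Tip110-/- pool alone was low in it.

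Box H/ACA genes had a smaller median difference than box C/D genes with all 4 arrays, and closer replicates. The medians by array were 6.86, 7.16, 8.52 and 8.96, and the median difference was 0.61. It was 0.26 without Tip110-/- replicate 1 and 0.91 without Tip110-/- replicate 2. The box C/D median was 0.71 without Tip110-/- replicate 2, so the order of the classes depended on that array. In limma 5 of 18 genes were higher and 1 lower at an unadjusted p under 0.05, or 27.8% and 5.56%. The shares in box C/D were 22.7% and 0%. Over all genes the shares were 8.99% and 3.67%. After adjustment in limma 0 of the 18 passed (smallest adjusted p = 0.305). Without wild-type replicate 2 the median difference was 0.44. At least 2-fold higher means were found in 5 genes, or 27.8%, against 4.53% of all genes and 10.1% of the genes of like mean signal. Both Tip110-/- arrays lay above both wild-type arrays in 8 genes, or 44.4%, against 39.9% of all genes and 20.7% of the genes of like mean signal. They lay below in 2, or 11.1%, against 12.9% and 27.1%. In box C/D the shares above and below were 34.1% and 4.55%. The genes of like mean signal were chosen by the means of all 68 genes and not of this class alone.

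**Figure D3:**
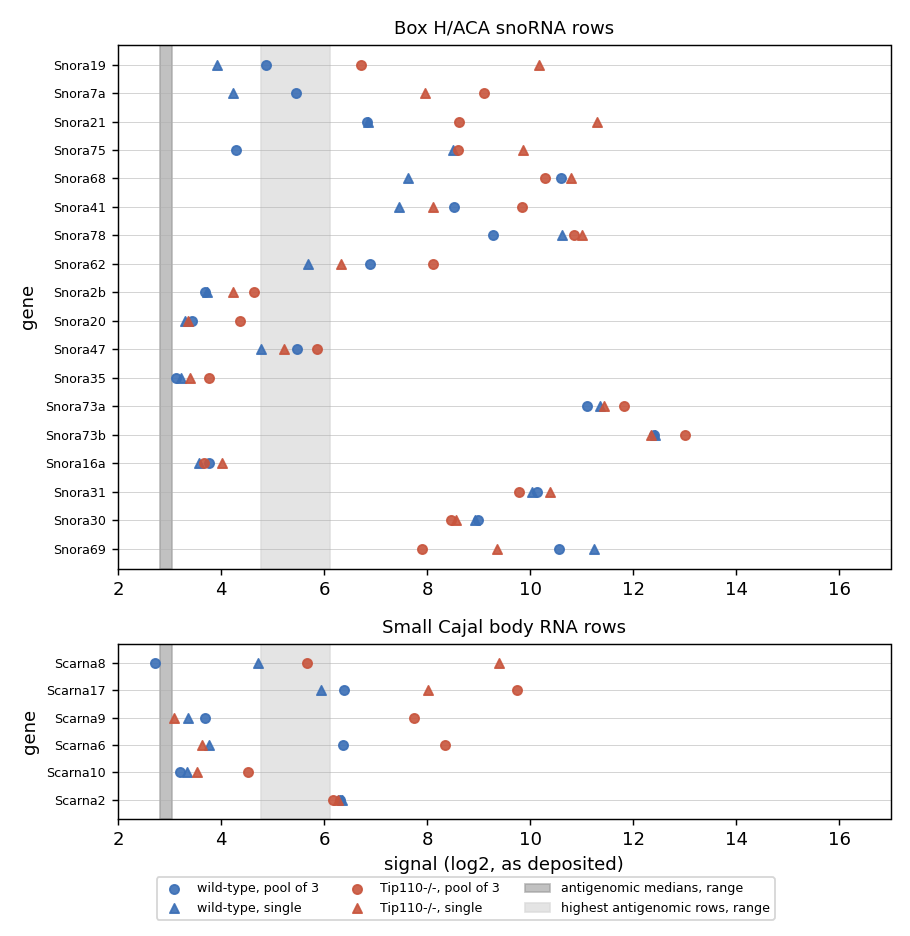
Signal (log2, as deposited) of the 18 box H/ACA genes (top) and the 6 scaRNA genes (bottom) on each array, sorted by the difference between genotypes, with symbols and bands as in the plot of box C/D signal. Snora19, Snora7a and Snora21 have both red points to the right of both blue points, Snora69 has both to the left, and the 4 points of Snora73b lie between 12.35 and 13.02.

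Snora7a, a pseudouridylation guide within the ribosomal protein gene Rpl32, was at 5.46, 4.24, 9.10 and 7.97. The groups were separated by more than 2 units and the wild-type values lay below that genotype's highest antigenomic rows. The difference was 3.69 ± 0.63 (SE, limma adjusted p = 0.305). Snora19, within the translation factor gene Eif3a, was at 4.88, 3.92, 6.71 and 10.18, a difference of 4.04 ± 1.18 (limma adjusted p = 0.345), with the Tip110-/- arrays over 3 units apart. Its wild-type values, too, were below the highest antigenomic rows, so that background limits the size of both differences. Snora21, within Rpl23, had matching wild-type values of 6.82 and 6.85 and Tip110-/- values of 8.61 and 11.30. Its difference was 3.12 ± 0.97 (limma adjusted p = 0.353). The unadjusted call was lost for Snora19 without wild-type replicate 2, at 3.56, and for Snora21 without wild-type replicate 1 or 2, at 3.10 and 3.13.

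Snora69, within the X-linked ribosomal protein gene Rpl39, went the other way. The wild-type arrays read 10.56 and 11.24, and both Tip110-/- arrays were lower, at 7.91 and 9.35. The difference was -2.27 ± 0.71 (SE, limma adjusted p = 0.355), and the row of Rpl39 differed by -0.28. It was the only snoRNA gene lower at an unadjusted p under 0.05 among the 68. Leaving out Tip110-/- replicate 1 gave -1.55 and leaving out wild-type replicate 2 gave -1.94, and the unadjusted p was above 0.05 both times.

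Snora73a and Snora73b, the U17 RNAs used in cleavage of the ribosomal RNA precursor, had small differences. Snora73a was at 11.10, 11.36, 11.82 and 11.43 and Snora73b at 12.42, 12.43, 13.02 and 12.35. The arrays of Snora73a did not overlap between genotypes and those of Snora73b did. Their differences were 0.39 ± 0.49 and 0.26 ± 0.46 (SE, limma adjusted p = 0.683 and 0.776). Both lie in the noncoding gene Snhg3, and as close copies they can share probes. Snora31, within Tpt1, was at 10.13, 10.04, 9.78 and 10.38, and Snora30, within Srcap, at 8.998, 8.94, 8.45 and 8.56, a difference of -0.46 ± 0.48. Snora68 and Snora78 each had 1 low wild-type array, at 7.62 in the single outgrowth and 9.29 in the pool, with the other 3 values at 10.29 or more. Snora41, within Eef1b2, and Snora62, within Rpsa, overlapped between genotypes and differed by 0.99 and 0.93. Snora2b and Snora35 had an unadjusted p under 0.05 with differences of 0.72 and 0.41, but neither exceeded the highest antigenomic row on any array. Snora16a, Snora20 and Snora47 differed by 0.17 to 0.50 with overlap. Among the RNAs listed by role, Snord22, Snord44, Snord47, Snord95, Snord113, Snord114, Snord115, Snord116 and Snora74a have no value here, since no row used carries their symbol alone.

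The scaRNAs guide modification of snRNAs, the class of RNA that Tip110 binds, and their 6 rows differed among themselves. At an unadjusted p under 0.05, 2 were higher in limma and 0 lower, where 8.99% and 3.67% of all genes were, and 0 passed after adjustment (smallest adjusted p = 0.339). Scarna17 was at 6.38, 5.94, 9.74 and 8.01, without overlap, a difference of 2.71 ± 0.70 (SE, limma adjusted p = 0.339). Scarna8 was at 2.72, 4.72, 5.66 and 9.40, also without overlap but with wide gaps, a difference of 3.81 ± 1.36 (limma adjusted p = 0.383). Both wild-type values of Scarna8 were below the highest antigenomic row of their array, the pool's even below the antigenomic median, so background limits its difference. Scarna17 lost its unadjusted call without wild-type replicate 2, at 2.49, and Scarna8 without wild-type replicate 1 or Tip110-/- replicate 2, at 2.81 and 1.94. Scarna2, a guide for U2 snRNA, was at 6.31, 6.36, 6.18 and 6.26, a difference of -0.12 ± 0.32, smaller than its error.

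Scarna6 was at 6.37, 3.76, 8.34 and 3.62 and Scarna9 at 3.69, 3.36, 7.74 and 3.09. The Tip110-/- pool was the highest array in both, and the single Tip110-/- outgrowth was the lowest. The median difference of the class was 1.40, and it was 0.09 without Tip110-/- replicate 1 and 2.61 without Tip110-/- replicate 2. A single array thus set the size of this median.

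The gap between the arrays of a genotype was wide in the box C/D class. The median gap was 1.33 in wild-type and 1.48 in Tip110-/-, against 0.19 and 0.24 over all genes and 0.46 and 0.65 in box H/ACA. Gaps above 2 were found for 38.6% of box C/D genes in wild-type and 43.2% in Tip110-/-, against 2.45% and 2.50% of all genes. Among the 6803 genes of like mean signal, the median gaps were 0.45 and 0.47. In box H/ACA 11.1% of genes had such a gap in each genotype. In box C/D the single Tip110-/- outgrowth was the highest array in 22 of 44 genes. Over all genes it was the highest in 27.0%.

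**Figure D4:**
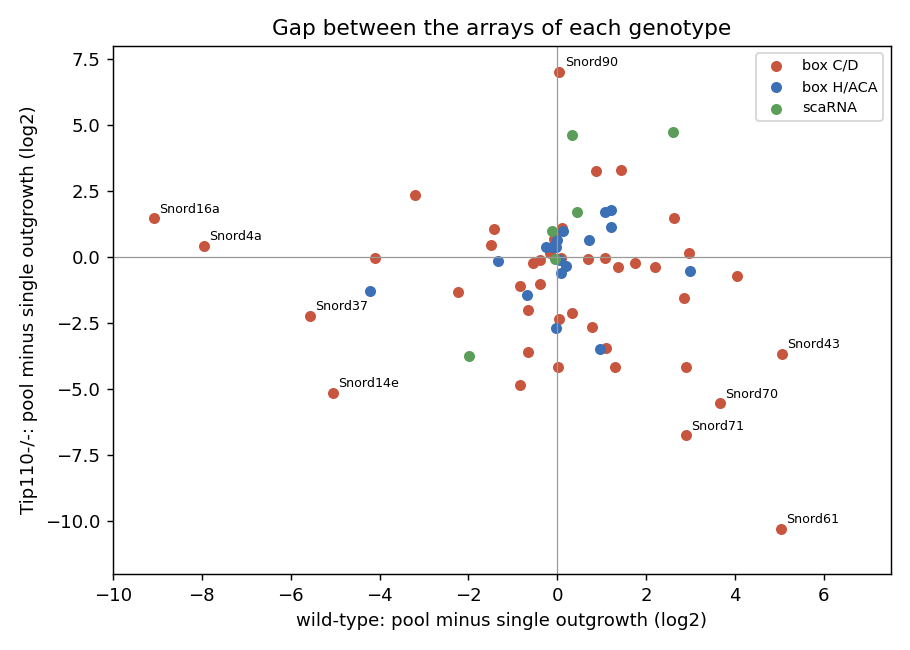
Pool minus single outgrowth (log2) in wild-type (x axis) and in Tip110-/- (y axis) for each of the 68 genes, coloured by class. Most box H/ACA points lie near the origin, Snord16a and Snord4a lie far to the left because the wild-type pool was low, and Snord61 lies lowest because the single Tip110-/- outgrowth was high.

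The largest gaps, named after their values were seen, were of both kinds. Snord16a, within Rpl4, was at 3.83, 12.92, 12.62 and 11.15, low in the wild-type pool alone. Snord61, within Rbmx, was at 7.99, 2.96, 3.43 and 13.70. Neither separated the genotypes. In a fit of pool against single outgrowths with genotype as a second term, 9 of 44 box C/D genes had an unadjusted p under 0.05 in limma, or 20.5%, against 3.27% of all genes, and 0 passed after adjustment. Of the 9, 3 were higher in the pools and 6 lower. In 27 of the 68 genes, or 39.7%, the difference of pool and single was larger than that of genotype, against 33.0% of all genes. Pooling and replicate number are the same split here and cannot be told apart.

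Most snoRNA genes lie inside other genes, whose own rows give a second measurement of the same loci. In the mouse RefSeq gene table (GRCm38.p6) 64 of the 68 lay within another gene, 6 of these within several, and 4 (Snord13, Snord118, Snord89 and Scarna2) within none. That table gives no strand, so containment was not checked for direction. For 33 snoRNA genes the containing gene had a row of its own in the gene test, 31 genes in all. Their differences ranged from -2.47 to 0.48 with a median of -0.19, while the median of the 33 snoRNA genes was 0.93. The snoRNA difference was larger in size in 30 of 33 pairs, and the signs were equal in 13. The containing genes also had closer replicates, with median gaps of 0.28 and 0.40 against 0.96 and 1.47 for their snoRNAs.

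**Figure D5:**
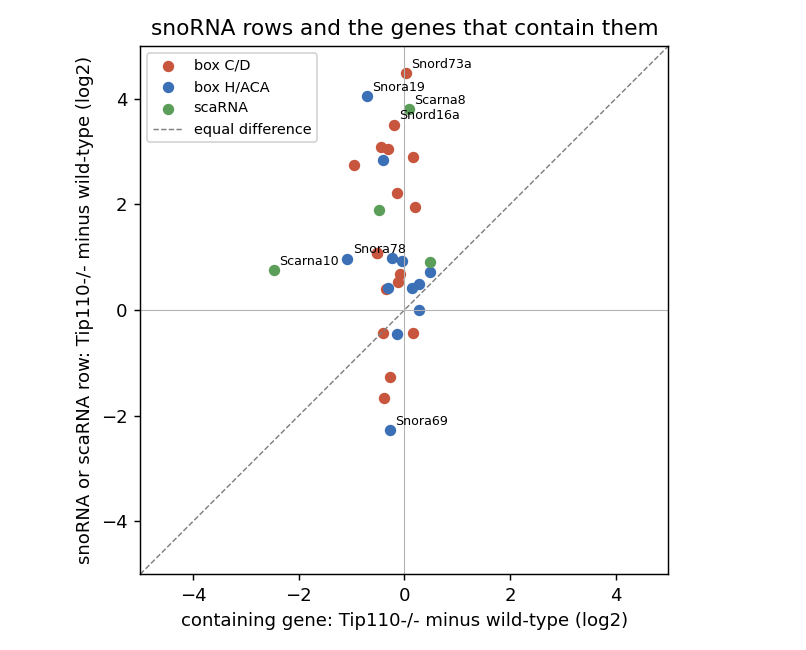
Difference between genotypes (log2) of the 33 snoRNA and scaRNA genes whose containing gene had its own row (y axis) against that of the containing gene (x axis); the dashed line marks equal differences. The points spread from Snora69 at -2.27 to Snord73a at 4.48 on the y axis while nearly all containing genes lie within 1 of 0, with Ncapd2, which holds Scarna10, at -2.47 on the x axis.

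Across these 33 pairs the Spearman correlation of the differences was -0.15 and the Pearson correlation -0.04, given as a description, since all points share the same 4 arrays. One containing gene, the condensin gene Ncapd2, had an unadjusted p under 0.05, at 7.25, 8.86, 5.77 and 5.41. Its intronic Scarna10 was at 3.20, 3.33, 4.53 and 3.53 and above the highest antigenomic row on none. When the 68 genes were split after their values were seen, the 19 inside ribosomal protein genes had a median difference of 2.04 and the other 49 a median of 0.76. Both Tip110-/- arrays were above both wild-type arrays in 9 of the 19 and in 17 of the 49, where the share over all genes was 39.9%.

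There were 6 genes that contained 2 of the snoRNAs each. Whether both are transcribed from the start of the containing gene was not tested. The 100 bases before that start (RefSeq, GRCm38.p6) are shown for 4 of the 6, because each lies upstream of a pair whose values are compared next. Capitals would mark TATAAA or its reverse complement TTTATA, which occurred in none of the 4 and in 5.56% of the 32851 windows of the same kind.
Nop58, chr1:59684906-59685005, plus strand: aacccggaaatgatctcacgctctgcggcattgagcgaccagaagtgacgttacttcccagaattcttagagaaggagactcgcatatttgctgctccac
Ncl, chr1:86359456-86359555, minus strand: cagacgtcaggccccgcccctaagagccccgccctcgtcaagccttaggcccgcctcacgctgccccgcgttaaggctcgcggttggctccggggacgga
2410006H16Rik, chr11:62602777-62602876, plus strand: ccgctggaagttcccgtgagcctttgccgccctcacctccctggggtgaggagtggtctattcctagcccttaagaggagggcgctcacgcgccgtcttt
Snhg3, chr4:132353687-132353786, minus strand: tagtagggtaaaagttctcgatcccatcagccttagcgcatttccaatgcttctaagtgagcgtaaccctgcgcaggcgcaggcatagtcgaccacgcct

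Pairs within one gene did not always have like values. Within Nop58, Snord11 and Snord70 differed by 1.07 and 1.08, but Snord70 was at 8.63, 4.97, 5.12 and 10.65, so its gaps exceeded 3 in both genotypes. Within Ncl, the gene of the nucleolar protein nucleolin, Snora75 was at 4.28, 8.50, 8.59 and 9.87, a difference of 2.84, and Snord82 at 7.63, 5.01, 6.63 and 5.15, a difference of -0.43. Within 2410006H16Rik, Snord49b was at 6.88, 3.98, 6.88 and 11.01, and its groups overlapped where those of Snord49a did not. Within Rpl23a, Snord4a differed by 5.12 and Snord42a by -0.37. Within Rpl3, Snord43 differed by 2.78 and Snord83b by 0.70. Within Snhg3 both U17 rows had small differences, as given above.

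The genes of the proteins that build and hold these particles were read against the 12.7% of all genes with an unadjusted p under 0.05 in either direction, and counts as small as theirs are near that share. Of 9 box C/D core and assembly genes with a row, 0 were higher or lower at an unadjusted p under 0.05 in limma, with a smallest p of 0.0687 for the assembly gene Pih1d1. The methyltransferase gene Fbl was at 14.67, 14.85, 14.01 and 14.62 and its partner Nop58 at 13.63, 13.94, 13.03 and 13.50. Of 8 box H/ACA genes 1 was lower, the pseudouridine synthase gene Dkc1, at 10.82, 12.04, 9.73 and 9.33, a difference of -1.90 ± 0.64 (limma adjusted p = 0.369). Its partners Nhp2, Nop10 and Gar1 differed by 0.25, 0.47 and -0.16. Of 13 genes of snoRNA turnover and RNA processing 1 was lower, the microprocessor nuclease Drosha, by -1.43 ± 0.51 (limma adjusted p = 0.381). Among 19 known host transcripts with a row 2 were higher, Snhg10 at 1.77 and Snhg17 at 1.20, and the list median was -0.08.

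Other short RNA genes of the table give a frame for these values. The 893 genes annotated as snoRNA without a Snord, Snora or Scarna name had a median difference of 0.22, and 5.82% were at least 2-fold higher. The 600 microRNA genes had a median of 0.25 and 12.8%. The 914 snRNA genes, which include many near-identical copies, had a median of 0.53 and 27.5%, and both Tip110-/- arrays were above both wild-type arrays in 62.1%. At an unadjusted p under 0.05 in limma 13.4% of the 893, 14% of the 600 and 26% of the 914 genes were higher. Among the named snoRNA genes 25% were, so such a share was not particular to them. Median gaps between arrays of a genotype were 0.19 to 0.34 in these 3 groups, below those of the named snoRNA genes, at 0.91 in wild-type and 1.20 in Tip110-/-. Above background were 26.1% of the 893, 35.3% of the 600 and 46.4% of the 914 genes, against 67.6% of the named snoRNA genes. Many rows of these 3 groups thus lay at background, which limits what their differences and gaps can show. Whether the classes differ was not tested.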

How the data were processed

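Total RNA of outgrowths was hybridised to Affymetrix mouse transcriptome arrays. The deposited table holds log2 signals for 72688 rows and 4 arrays, between 1.78 and 19.84. Affymetrix Expression Console and Transcriptome Analysis Console are named in the submitters' processing notes, and the normalization is not given in the sources used here. The labels give 144 pg of RNA for one Tip110-/- sample where the design text gives 100 pg.

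Rows were named through the platform annotation, rows with 1 symbol were kept and the row of highest mean represented each of 30142 genes. limma 3.58.1 (R 4.3.3; lmFit, eBayes with an intensity trend) compared 2 wild-type with 2 Tip110-/- arrays on the deposited values over all genes, with Benjamini-Hochberg adjustment at 0.05, and the code was tested on simulated data. The array number limits precision. Genes above 0.05 after adjustment are described by the unadjusted mark, by the overlap of arrays and by a difference of 1 log2 unit (2-fold).

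Genes named by rule were, in each box class, up to 6 in each direction with the largest difference among those at an unadjusted p under 0.05, without overlap and above background, places left being filled by size. The rule added the 5 of highest mean in each class, scaRNAs above background and a list of known roles. Other genes are named because of their values or as pairs in 1 containing gene. Members and lists were chosen with earlier results of these data known. Containing genes came from the RefSeq gene table, which has no strand, although the same strand had been planned. Overlapping genes on opposite strands cannot be told apart, as no source used here gives the probes' strand. The labels do not say that samples came from separate litters, so p-values measure the spread between these samples only. The alternatives were 4 other scalings, filters, variance settings, leaving out each array, a replicate block, and other row choices. Values were processed with Python 3.11.15.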

Additional observations from a re-analysis of the deposited data

How the results depend on the processing

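With 2 arrays a genotype, leaving out 1 leaves a lone array that is assumed to vary like the other group. The box C/D count at an unadjusted p under 0.05 in limma was 10, and 12 to 17 without single arrays (16 without wild-type replicate 2, 17 without Tip110-/- replicate 1). Counts here take both directions together. The main 10 were all higher, while each fit without a single array also held lower box C/D genes, so its count is not one of higher genes. With replicate number as a block the box C/D count was 15, all higher. It was 29, with 26 higher and 3 lower, when counted by a difference of at least 1, an alternative chosen after seeing the data. The box H/ACA count was 6, 3 to 7 without single arrays and 7 with the replicate block. Over all genes the share at the unadjusted mark in limma was 12.7% in the main fit and 11.1% with the replicate block. A difference of at least 1 was found in 4.53% of all genes upward and 5.56% downward. The share at the unadjusted mark over all genes also moved when single arrays were left out. Changes in the class counts without single arrays are therefore not read as changes of the classes alone. The correlation between the replicate gaps of the 2 genotypes was -0.09 over all genes, -0.28 in box C/D and 0.23 in box H/ACA. Whether replicate numbers pair the samples cannot be told from these values, since each genotype gives only 1 gap per gene. The median difference without single arrays was 0.71 to 1.68 in box C/D, 0.26 to 0.91 in box H/ACA and 0.09 to 2.61 in scaRNAs. With only genes of mean above the median row the box H/ACA median was 0.93. Required on all 4 arrays, 9 box C/D and 9 box H/ACA genes were above background, and without single arrays 30 to 33 and 14. Quantile scaling moved the median of all genes from 0.15 to 0.01. Of 419 comparisons over the 30 named genes, 374 kept their direction and their side of the mark, 18 lost it, 12 gained it and 15 turned direction, none of the 15 with an unadjusted p under 0.05 on either side. The 18 genes at an unadjusted p under 0.05 kept their direction throughout. Their groups did not overlap in any of them, so leaving out an array could not have turned it. Without single arrays the difference of Scarna6 ran from -1.44 to 3.28, Scarna9 from -0.43 to 4.21, Snora31 from -0.31 to 0.29 and Snora68 from -0.07 to 2.92. That of Snora73b ran from -0.07 to 0.59, Snord104 from -0.60 to 4.25, Snord14e from -0.35 to 4.77, Snord42a from -0.93 to 0.19 and Snord58b from -2.61 to 1.55. Quantile scaling gave Scarna2 0.05 and loess gave Snora31 0.06. Snora7a, Snord13, Snord35a and Snord73a kept an unadjusted p under 0.05 in every alternative run.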

Other observations

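A further 45 rows carry several symbols of which at least 1 is a snoRNA or scaRNA. Apart from the values of the U14 row that names Hspa8, they were not used above. Both Tip110-/- arrays were above both wild-type arrays in 14 of the 45, below in 3, and overlapped in 28. Over all genes with a single symbol the shares above and below were 39.9% and 12.9%. Their differences ranged from -0.95 to 4.04 with a median of 0.16, and the median gaps between arrays of a genotype were 0.31 and 0.41. One of them has the same values as the row of Snora19.

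RefSeq lengths of the genes ran from 28 to 221 bases in box C/D, with a median of 68, and from 56 to 205 in box H/ACA, with a median of 120.5. Across the 68 genes the Spearman correlation of length with the mean gap between arrays was -0.22, and that of the wild-type mean with the difference was -0.10. Both are descriptions over genes that share 4 arrays.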
